A study of Oryza sativa with 24 samples.

Results

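Heat stress factors and heat shock proteins were followed in the leaves and shoots of rice seedlings during the first day at 4 °C. A gene was taken as a member where its symbol or a synonym in the annotation, with any leading Os removed, began with HSF or HSP. The RefSeq gene table of assembly ASM3414082v1, used for names and gene order only, held 49 such genes. Of these, 43 had a probe set assigned to that gene alone and were measured, out of 17905 genes measured in all. They comprised 20 heat stress factors and 23 heat shock proteins. HSF16, HSF17, HSF22, HSP16.9C, HSP18.9 and HSP19.0 had no such probe set and were not analysed here. The proteins were 19 small heat shock proteins, 3 of the HSP90 family and 1 of the HSP100 family. Chaperones of the HSP40, HSP60 and HSP70 families carry other names in this annotation and were not among them.

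Seedlings of 8 rice accessions (MH63, ZS97, 9311, IRAT109, Muguanuo, Lixingeng, Youmangzaogeng and Geng87-304) were raised in potting soil to the 4-leaf stage and then kept at a constant 4 °C under 14 h of light and 10 h of darkness. Shoot and leaf RNA came from seedlings not yet cooled, from seedlings cooled for 6 h and from seedlings cooled for 24 h. Each accession gave 1 Affymetrix array at each time, so that each time group held 8 arrays and the accessions served as its replicates. No array of uncooled seedlings at 6 h or 24 h was analysed here, so cold and hours in the chamber or time of day cannot be told apart. The labels do not say whether arrays came from separate plantings, and the p-values measure only the spread between these samples.

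Heat stress factors are transcription factors that bind heat shock elements in promoters as trimers. Class A factors carry activation domains, and class B and class C factors lack the activation motifs of class A. Their best known targets encode chaperones. Small heat shock proteins hold partly unfolded proteins without using ATP, HSP90 proteins mature signalling proteins and other clients, and HSP100 proteins pull aggregates apart. In leaves this system is best known from heat, where factors and chaperones are induced together.

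Values were probe set intensities on a linear scale, and array medians lay between 41.8 and 46.7. Changes were taken on log2(intensity + 32), a scale that understates the change of dim genes, and tested with limma over 57258 probe sets with accession as a block. Fold values were computed from these changes, so they are ratios of intensity + 32 and not of the printed intensities. A change passed at a Benjamini-Hochberg adjusted p under 0.05. The array of Lixingeng before cold and the array of MH63 at 24 h share neither accession nor time, yet had the highest Spearman correlation of all 276 pairs of arrays (0.992, against 0.981 for the next pair). Both stayed in the fit, and for part of the results values without this pair are given as well. Leaf markers (the photosynthesis genes CAB2R, PORB, rbcS and rca) were above background on all 24 arrays. Of 6 root marker genes, Lsi2, SUT5 and AMT1-2 were above background on no array and NRT2.2 on 1, while Lsi1 and HAK1 were above it on 24. Lsi1 differed by -0.76 and HAK1 by 1.45 (log2) at 24 h against before cold, and their part in the results was not tested. The log2 ratio of 3′ to 5′ actin control probe sets, a sign of RNA quality, averaged 3.22 with an SD of 0.37 on the 8 arrays before cold, 3.17 (SD 0.37) at 6 h and 2.75 (SD 0.45) at 24 h. It was lower at 24 h than before in 8 of 8 accessions, and its part in the results was not tested either.

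The factors moved in the cold and split by member. At 6 h, 4 of the 20 factors had risen (HSF03, HSF07, HSF15 and HSF08) and 6 had fallen (HSF05, HSF24, HSF14, HSF23, HSF18 and HSF02). At 24 h, 7 had risen and 8 had fallen. The rises at 24 h were HSF03, HSF07, HSF09, HSF15, HSF25, HSF13 and HSF01, and the falls HSF05, HSF24, HSF23, HSF12, HSF14, HSF18, HSF02 and HSF21. The background of calls was 9.75% of all probe sets and 17.9% of genes at 6 h, and 33.0% of probe sets and 52.1% of genes at 24 h. By direction, 4.10% of genes rose and 13.8% fell at 6 h, and 18.8% rose and 33.3% fell at 24 h. The median change of the 20 factors was -0.02 at 6 h and 0.03 at 24 h, beside -0.03 and -0.04 over all genes. HSF01, HSF11, HSF18, HSF19 and HSF21 exceeded background on no array, where background is the highest of 10 control probe sets for the fungus Magnaporthe on the same array. Their intensities lay at 74.3 or less, and the calls of HSF01, HSF18 and HSF21 concern readings at that level.

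Of the 23 heat shock proteins, 0 rose and HSP24.1 fell at 6 h in the limma fit, beside 4.10% of genes that rose and 13.8% that fell, and 0 rose at an unadjusted p under 0.05 as well. At 24 h, 3 rose (HSP18.0, HSP26.2 and HSP17.8, by 0.56, 0.28 and 0.09) and 7 fell (HSP81-1, HSP24.1, HSP22.3, HSP17.9B, HSP16.0, HSP18.6 and HSP81-3), beside 18.8% of genes that rose and 33.3% that fell. The share called at 24 h was 43.5% of the proteins, beside 52.1% of all genes. The median change of the 23 was -0.05 at 6 h and -0.04 at 24 h, close to the medians of all genes. HSP101, HSP17.8, HSP21.9, HSP23.2 and HSP26.7 exceeded background on no array. Without the pair of like arrays, 4 proteins fell and 0 rose at 6 h, the falls being HSP81-1, HSP17.9B, HSP22.3 and HSP24.1. At 24 h 2 rose and 9 fell in that fit. Its background was 14.4% of probe sets at 6 h and 36.8% at 24 h, and its share of genes was not computed. With all arrays the share of genes exceeded that of probe sets (17.9% against 9.75% at 6 h, 52.1% against 33.0% at 24 h). The counts without the pair therefore cannot be ranked against their background.

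**Figure D1:**
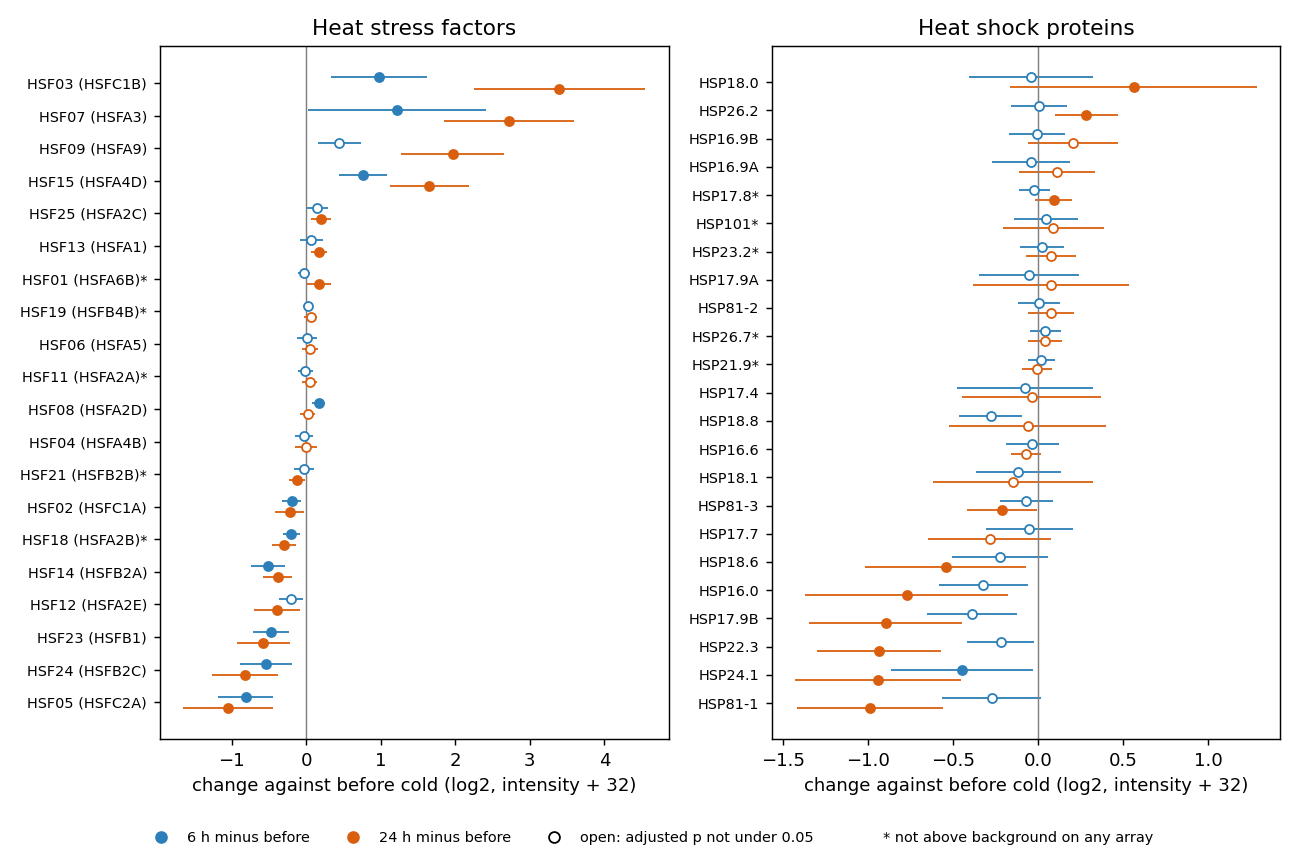
Change of each of the 20 heat stress factors (left) and 23 heat shock proteins (right) against before cold, as the mean log2 change over 8 accessions with the SD of the 8 changes as bars, at 6 h (blue) and 24 h (orange). Filled points passed an adjusted p under 0.05, and an asterisk marks members above background on no array. HSF03, HSF07, HSF09 and HSF15 stand apart on the right at 24 h with changes of 1.65 to 3.40, while the largest protein change is the fall of HSP81-1 by 0.99. The horizontal scales of the panels differ.

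Among class A factors, the class with activation domains, 3 of 12 rose and 1 fell at 6 h, beside 4.10% of genes that rose and 13.8% that fell. At 24 h 6 rose and 2 fell, beside 18.8% of genes that rose and 33.3% that fell. Without the pair, 5 rose and 1 fell at 6 h, HSF09 and HSF25 being the additional rises. The share of genes was not computed for that fit. HSF07 (HSFA3) is the rice relative of Arabidopsis HSFA3, a factor that acts downstream of DREB2A in heat and drought. Its intensity had a lowest, median and highest value of 43.7 (IRAT109), 83.9 and 534 (Lixingeng) before cold, of 113 (IRAT109), 327 and 786 (Geng87-304) at 6 h, and of 507 (MH63), 802 and 1739.8 (Geng87-304) at 24 h. Apart from the Lixingeng array, no accession read over 111 before cold. On the arrays outside the like pair, neither the 6 h nor the 24 h values overlapped those before cold. The share of all genes without such overlap was not computed, so overlap here and below only describes the readings. HSF07 rose 2.33-fold at 6 h (log2 change 1.22 ± 1.19, SD, n = 8; limma adjusted p = 0.00794; higher in 7 of 8 accessions) and 6.59-fold at 24 h (2.72 ± 0.87; adjusted p = 5.63e-07; 8 of 8). Without the pair the changes were 1.47 and 3.08. The 6 h changes ran from 3.08 in Geng87-304 and 2.13 in Youmangzaogeng to 0.44 in ZS97, with -0.78 in Lixingeng, whose before array belongs to the pair.

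HSF09 (HSFA9) belongs to a type known in Arabidopsis and sunflower from seed development. Its lowest, median and highest intensities were 132 (Muguanuo), 168 and 264 (Lixingeng) before cold, 175 (9311), 240.5 and 355 (IRAT109) at 6 h, and 261 (MH63), 859 and 1402 (IRAT109) at 24 h. The extremes that brought the groups at 24 h and before cold into overlap were the arrays of the pair, since the other 7 accessions read 557 or more at 24 h and 208 or less before cold. At 6 h the change was 0.45 ± 0.29 (adjusted p = 0.137; higher in 7 of 8), which did not pass with all arrays and did without the pair (0.53; adjusted p = 0.000232). At 24 h HSF09 rose 3.90-fold (1.96 ± 0.69; adjusted p = 1.37e-07; 8 of 8), and from 6 h onward it gained 1.52 ± 0.62 (24 h against 6 h, adjusted p = 1.88e-05).

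HSF15 (HSFA4D) is the SPL7 gene, whose loss gives rice leaves spontaneous lesions. It read 77.5 (9311), 185 and 495 (IRAT109) as lowest, median and highest before cold, 117 (9311), 297 and 1059 (IRAT109) at 6 h, and 223 (9311), 725 and 1807 (IRAT109) at 24 h. The groups overlapped because accessions differed in level, with IRAT109 highest and 9311 lowest at every time, while the level went up within each accession. HSF15 rose 1.69-fold at 6 h (0.76 ± 0.32; adjusted p = 0.000663) and 3.14-fold at 24 h (1.65 ± 0.53; adjusted p = 4.03e-08), higher in 8 of 8 accessions both times. The largest 24 h change was 2.61 in ZS97 and the smallest 0.91 in MH63, whose 24 h array is 1 of the pair.

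The mean changes of the other class A members were smaller, the largest being the fall of HSF12 at 24 h given below. HSF25 (HSFA2C) is of the A2 type, the factors most strongly heat induced in Arabidopsis. Its lowest, median and highest intensities were 37.3 (Muguanuo), 89.7 and 198 (ZS97) before cold, 45.8 (Muguanuo), 95.6 and 258 (ZS97) at 6 h, and 42.2 (Muguanuo), 109.5 and 264 (ZS97) at 24 h. Levels followed the accession more than the time, with ZS97 highest and Muguanuo lowest throughout, and the groups overlapped. HSF25 rose 1.15-fold at 24 h (0.20 ± 0.13; adjusted p = 0.00435; 8 of 8), and its second probe set did not pass (0.03; adjusted p = 0.633). At 6 h its change of 0.15 did not pass with all arrays (adjusted p = 0.0784) and did without the pair (0.18; adjusted p = 0.0162). The gene entry of HSF25 also carries the synonym ARD1, and that of HSF08 the synonym ARD2, both names of acireductone dioxygenases, so it is not certain which transcript each probe set read.

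HSF08 (HSFA2D) rose 1.13-fold at 6 h (0.17 ± 0.09; adjusted p = 0.0280; 8 of 8). That call was lost without ZS97, Geng87-304, Youmangzaogeng or Muguanuo. At 24 h its change was 0.02 (adjusted p = 0.765), and 24 h lay below 6 h by a change of -0.15 (adjusted p = 0.0386), a call lost in 7 of 8 fits that left out 1 accession and under quantile normalization (adjusted p = 0.0544). The second probe set of HSF08 changed by 0.19 at 6 h (adjusted p = 0.283) and rose at 24 h by 0.46 (adjusted p = 0.00133), so the 2 probe sets put the change at different times. HSF13 (HSFA1), of the type that starts the heat response in Arabidopsis and tomato, rose at 24 h by 0.17 ± 0.11 (adjusted p = 0.0356; 7 of 8), a call lost in 6 of the 8 fits that left out 1 accession.

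Of the class A falls, HSF12 (HSFA2E) fell at 24 h by 0.38 ± 0.31 (limma adjusted p = 0.000695, lower in 7 of 8). It read 166 to 289 at 24 h, against 231 to 333 before cold. Its 24 h changes ran from -0.80 in 9311 and ZS97 to 0.08 in Muguanuo. HSF18 (HSFA2B) fell at both times, by 0.20 and 0.30, at readings not above background. HSF04 (HSFA4B) and HSF06 (HSFA5), above background on 24 arrays, did not pass at either time, with a 24 h change of 0.06 in HSF06 and one nearer to 0 in HSF04. HSF11 (HSFA2A) did not pass either, at 0.05.

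**Figure D2:**
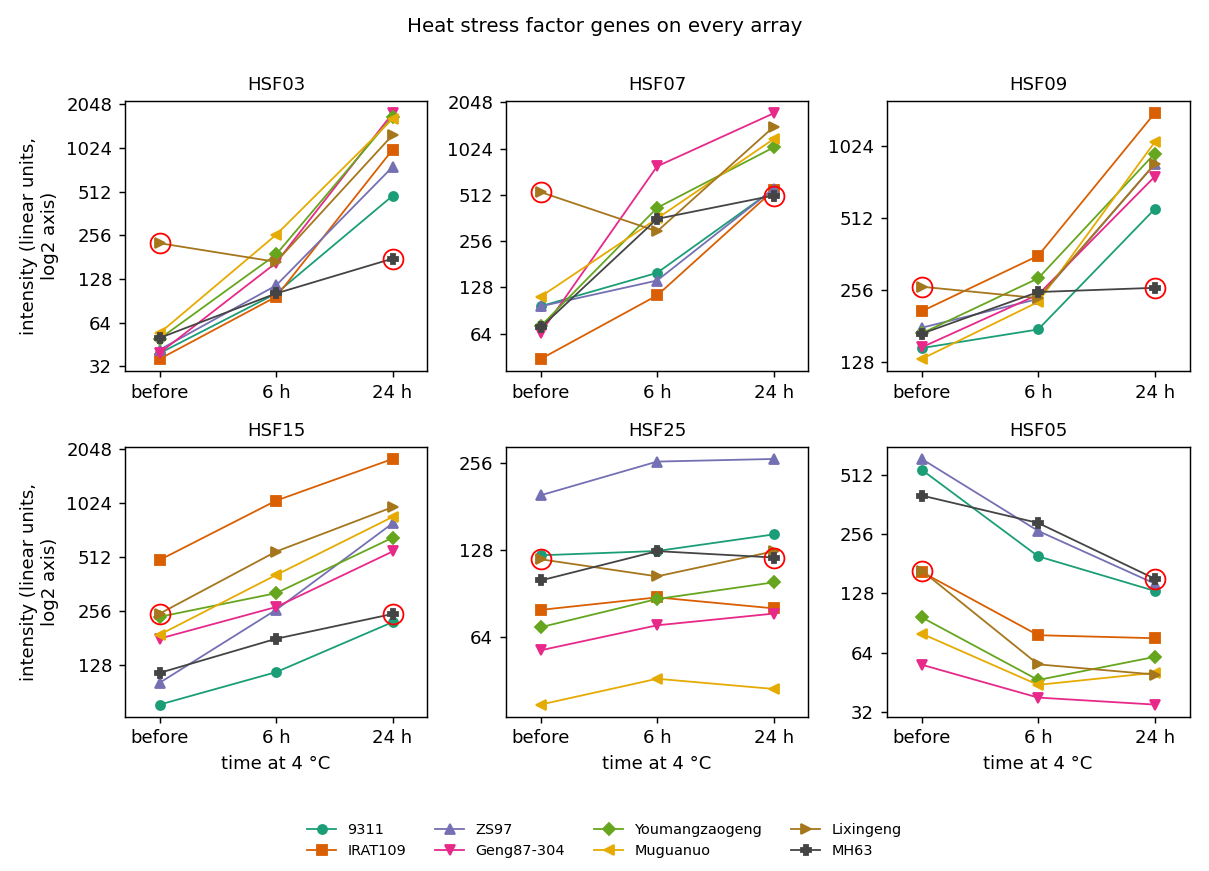
Intensity (linear units on a log2 axis) of 6 heat stress factor genes on every array, with 1 line for each of the 8 accessions over the times before cold, 6 h and 24 h. Red circles mark the arrays Lixingeng before cold and MH63 at 24 h. Outside these, every accession climbs for HSF03, HSF07, HSF09 and HSF15, HSF25 stays near each accession's own level, and HSF05 goes down from 3 high accessions and 5 low ones.

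Class B factors lack the activation motifs of class A, and several repress transcription in Arabidopsis. Of the 5 measured, 0 rose and 3 fell at 6 h, beside 4.10% of genes that rose and 13.8% that fell. At 24 h 0 rose and 4 fell, beside 18.8% of genes that rose and 33.3% that fell. With 5 members these counts only describe the class. In the limma fit without the pair the counts were also 0 and 3, then 0 and 4, with no share of genes computed. HSF24 (HSFB2C) read 90.4 to 183 at 24 h and 123 to 229 at 6 h, against 166 to 399 before cold. It fell by 0.54 ± 0.35 at 6 h (adjusted p = 0.00383; lower in 7 of 8) and by 0.82 ± 0.44 at 24 h (adjusted p = 1.25e-05; 8 of 8), and its other probe sets fell at 24 h by 0.54 and 0.16. HSF23 (HSFB1) fell by 0.47 and 0.57 and HSF14 (HSFB2A) by 0.51 and 0.38, each lower in 8 of 8 accessions at both times. Both probe sets of HSF14 fell at both times. HSF21 (HSFB2B), whose 24 h fall of 0.12 was lost in 5 of 8 fits that left out 1 accession, and HSF19 (HSFB4B) were not above background. Between 6 h and 24 h no class B factor passed in the limma fit with all arrays, and 2 fell without the pair.

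The 3 measured class C factors, a class with no well established general role, moved in opposite directions. HSF03 (HSFC1B) had the largest change of the 43 members. Its lowest, median and highest intensities were 36.0 (IRAT109), 45.6 and 226 (Lixingeng) before cold, 96.5 (IRAT109), 141 and 258 (Muguanuo) at 6 h, and 177 (MH63), 1128 and 1777 (Geng87-304) at 24 h. The Lixingeng reading of 226 stood apart from the other accessions, which read 54.3 or less before cold, and the MH63 reading of 177 from the others at 24 h, which were 479 or more. HSF03 rose 1.97-fold at 6 h (0.98 ± 0.65; adjusted p = 0.0311; 7 of 8) and 10.5-fold at 24 h (3.40 ± 1.15; adjusted p = 6.04e-08; 8 of 8). Without the pair the changes were 1.17 (adjusted p = 3.08e-05) and 3.88, and the groups at each cold time and before cold did not overlap. The 6 h call with all arrays was lost without 9311, IRAT109, ZS97, Geng87-304, Youmangzaogeng or Muguanuo.

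HSF05 (HSFC2A) was the factor with the largest fall. It read 55.7 (Geng87-304), 166 and 616 (ZS97) as lowest, median and highest before cold, 37.9 (Geng87-304), 67.3 and 292 (MH63) at 6 h, and 34.9 (Geng87-304), 68.4 and 152 (MH63) at 24 h. ZS97, 9311 and MH63 began between 402 and 616 and the other accessions at 167 or less, so the groups overlapped although every accession went down. HSF05 fell by 0.81 ± 0.37 at 6 h (adjusted p = 0.00125) and by 1.05 ± 0.60 at 24 h (adjusted p = 1.65e-05), lower in 8 of 8 both times. Without the pair the changes of HSF05 were -0.76 at 6 h and -0.94 at 24 h. By accession, the 24 h changes were -1.88 in ZS97 and -1.81 in 9311, against -0.39 in Geng87-304. In Geng87-304 the reading lay near the offset and a fall is understated. HSF02 (HSFC1A), above background on 2 arrays, fell by 0.19 at 6 h and 0.22 at 24 h, and its 6 h call was lost without 5 of the accessions and under quantile normalization (adjusted p = 0.0781).

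Between 6 h and 24 h, 5 factors rose further (HSF03 by 2.42, HSF09 by 1.52, HSF07 by 1.50, HSF15 by 0.89 and HSF01 by 0.19) in limma, and HSF08 fell in the call described above as lost in 7 of 8 fits. For the proteins 3 were higher at 24 h than at 6 h (HSP18.0, HSP26.2 and HSP17.8) and 5 lower (HSP22.3, HSP81-1, HSP17.9B, HSP24.1 and HSP16.0). The background in this comparison was 18.1% of probe sets and 30.6% of genes, with 12.4% of genes higher and 18.2% lower, and the shares of factors (30.0%) and of proteins (34.8%) called were near it. Without the pair of like arrays, 5 factors were higher and 4 lower, and 3 proteins were higher and 8 lower, against 26.1% of probe sets. The share of genes was not computed for that fit, so these counts cannot be ranked against their background.

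Among the proteins, the HSP90 genes went apart. HSP81-1 read 1930.2 (Lixingeng), 2798 and 3733 (Youmangzaogeng) as lowest, median and highest before cold, 1772 (MH63), 2340.1 and 2859 (IRAT109) at 6 h, and 1065 (ZS97), 1348 and 2181 (MH63) at 24 h. Both arrays of the pair lay between the others, and without them the 24 h values stayed at 1659 or less and those before cold at 2457 or more. HSP81-1 changed by -0.27 ± 0.29 at 6 h (adjusted p = 0.208; lower in 7 of 8) and fell by 0.99 ± 0.43 at 24 h (adjusted p = 4.81e-06; 8 of 8). Without the pair, HSP81-1 changed by -0.36 at 6 h, which passed (limma adjusted p = 0.00133), and by -1.20 at 24 h. Its other probe set fell by 0.75 at 24 h with all arrays (adjusted p = 0.00137). HSP81-2 changed by 0.07 ± 0.13 at 24 h and did not pass (adjusted p = 0.281). HSP81-3, separated from HSP81-2 by 2 genes on chromosome 9, fell by 0.21 at 24 h (adjusted p = 0.0297). That call was lost in 6 of 8 fits without 1 accession and under quantile normalization (adjusted p = 0.150). Its other 4 probe sets did not pass with all arrays. Without the pair HSP81-3 changed by -0.32 (limma adjusted p = 0.000129). Another of its probe sets also passed in that fit (-0.30; adjusted p = 0.00298), while the rest did not. These genes are near-identical copies in part, and probe sets may share transcript.

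HSP101, the HSP100 disaggregase needed for survival of heat in plants, was not above background on any array and read 47.2 to 80.8 at 24 h, against 33.4 to 96.8 before cold. Its change was 0.09 at 24 h (adjusted p = 0.435).

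Of the 19 small heat shock proteins, 3 rose and 5 fell at 24 h, beside 18.8% of genes that rose and 33.3% that fell. The share called was 42.1%, beside 52.1% of all genes. HSP22.3 was the protein whose 24 h values did not overlap those before cold with all arrays, a share not computed over all genes. It read 127 (Lixingeng), 151 and 195 (Youmangzaogeng) as lowest, median and highest before cold, 99.9 (IRAT109), 134 and 150.5 (Youmangzaogeng) at 6 h, and 43.8 (IRAT109), 64.4 and 117 (MH63) at 24 h. Apart from MH63, every 24 h reading was 73.1 or less. HSP22.3 fell by 0.94 ± 0.36 at 24 h (adjusted p = 3.42e-07; 8 of 8). Its 6 h change of -0.22 did not pass with all arrays (limma adjusted p = 0.165) and did without the pair, at -0.27 (adjusted p = 0.0121). The 24 h level lay below that at 6 h (-0.72 ± 0.27, adjusted p = 4.46e-05).

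HSP24.1 read 113 (Muguanuo), 216 and 630.3 (9311) as lowest, median and highest before cold, 73.9 (Muguanuo), 125 and 715 (9311) at 6 h, and 61.1 (Muguanuo), 81.8 and 342 (9311) at 24 h. The line 9311 was highest at all times and Muguanuo lowest, and the groups overlapped. HSP24.1 fell by 0.45 ± 0.42 at 6 h (adjusted p = 0.0356; lower in 6 of 8), a call lost without IRAT109, ZS97, Geng87-304, Youmangzaogeng or Muguanuo, and by 0.94 ± 0.49 at 24 h (adjusted p = 1.50e-05; 8 of 8). In ZS97 the 24 h change was -1.68, and in 9311 it was -0.82 after a 6 h change of 0.17.

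HSP17.9B read 2804 (Lixingeng), 3973 and 5286 (Youmangzaogeng) as lowest, median and highest before cold, 2188 (9311), 3004 and 4114 (IRAT109) at 6 h, and 1680.4 (IRAT109), 2005 and 3001 (MH63) at 24 h. Without the pair, the 24 h and before groups did not overlap. HSP17.9B fell by 0.90 ± 0.45 at 24 h (adjusted p = 2.66e-05; 8 of 8), and at 6 h its change of -0.39 ± 0.27 did not pass with all arrays (adjusted p = 0.0747) and did without the pair (-0.46; adjusted p = 0.00538). Its place is within a run of 5 small heat shock protein genes on chromosome 1 with no other gene between them: HSP16.6, HSP17.9B, HSP16.9C, HSP16.9A and HSP16.9B. Of the other measured genes of that run, HSP16.6, HSP16.9A and HSP16.9B changed by -0.07, 0.11 and 0.20 at 24 h and none passed (adjusted p = 0.339, 0.300 and 0.0661 in limma).

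**Figure D3:**
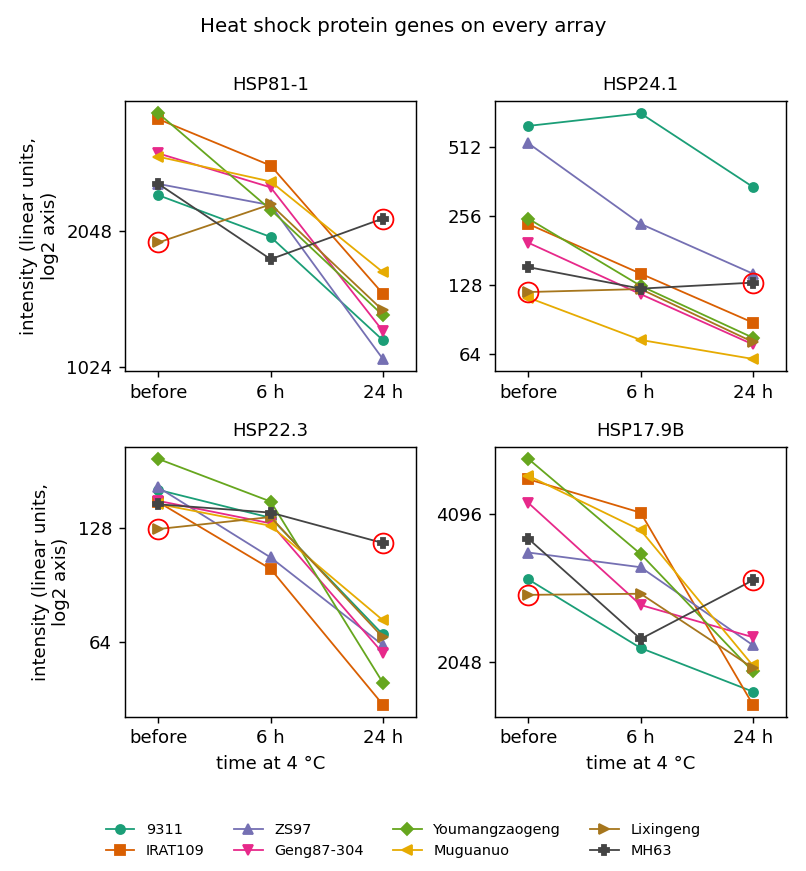
Intensity (linear units on a log2 axis) of the 4 heat shock protein genes with the largest changes at 24 h that passed, on every array, with 1 line for each of the 8 accessions over the times before cold, 6 h and 24 h. Red circles mark the arrays Lixingeng before cold and MH63 at 24 h. HSP81-1, HSP17.9B and HSP22.3 lie lower at 24 h in every accession, and HSP24.1 does so from a higher level in 9311.

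HSP16.0 fell by 0.77 ± 0.60 at 24 h (adjusted p = 0.000170; 8 of 8), reading 17.3 to 42.1 at 24 h, against 22.6 to 166 before cold, with 4 arrays above background. HSP18.6 fell by 0.55 ± 0.47 (adjusted p = 0.000896; 8 of 8), reading 42.3 to 49.3 at 24 h, against 47.7 to 189.6 before cold. It exceeded background on 3 arrays, none of them at 24 h. Among its other probe sets, 1 fell by 0.81 while the other did not pass. HSP26.2 rose by 0.28 ± 0.19 (adjusted p = 0.000904; 7 of 8), reading 22.5 to 87.5 at 24 h, against 23.3 to 46.8 before cold, with 1 array above background. HSP17.8 rose by 0.09 at readings not above background, and the call was lost in 6 of 8 fits without 1 accession.

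The rise of HSP18.0 at 24 h against before cold rested on the pair of like arrays. Its probe set read 18.6 to 23.7 on the arrays of 9311, ZS97 and MH63 outside the pair and 189 to 518 on those of the other 5 accessions outside it. The MH63 array at 24 h read 144, between these levels, and the Lixingeng array before cold read 134, below the 249.9 and 518 of that accession's later arrays. HSP18.0 had a change of 0.56 ± 0.73 at 24 h (adjusted p = 0.0224; higher in 6 of 8), with 1.73 in Lixingeng and 1.67 in MH63. Without the pair the change was 0.23 and did not pass (adjusted p = 0.0742), and the call was likewise lost without Lixingeng or without MH63. Its other probe sets disagreed, with a fall of 0.31 in 1 (adjusted p = 0.0130) and a rise of 0.12 in the other (adjusted p = 0.0445). Against 6 h, HSP18.0 was higher at 24 h by 0.61 ± 0.60 (limma adjusted p = 0.0258; 8 of 8, with 0.01 in 9311 and in ZS97). Without the pair that change was 0.43 (adjusted p = 0.00197). With all arrays the call against 6 h was lost without Geng87-304, Youmangzaogeng or MH63, and neither other probe set passed.

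Other small heat shock proteins did not pass at 24 h with all arrays. HSP17.9A, HSP17.4, HSP18.1 and HSP17.7, cytosolic class I proteins encoded close together on chromosome 3 with 4 genes between the first and the second and none between the rest, changed by 0.07, -0.04, -0.15 and -0.29 at 24 h, and none passed in the limma fit with all arrays (lowest adjusted p = 0.0528, for HSP17.7). Without the pair, HSP17.7 (-0.43; adjusted p = 0.000532) and HSP18.1 (-0.32; adjusted p = 0.0170) fell. The second probe set of HSP17.7 rose by 0.30 with all arrays (adjusted p = 0.000257), so the direction for that gene differs between its probe sets. HSP18.8 changed by -0.06 ± 0.46, from -0.90 in Youmangzaogeng to 0.42 in ZS97, with values of 1185 to 3386 at 24 h and 1816 to 3295 before cold.

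Levels differed between accessions for many members. The accession term of the fit passed for 15 of 20 factors and 16 of 23 proteins, beside 54.3% of all probe sets and 69.0% of genes, so the share among members was near the background. Differences in transcript level and differences in sequence under the probes cannot be told apart here. The widest ranges of accession means were those of HSF15 (2.66 on the log2 scale, IRAT109 over 9311), HSP18.0 (2.66, Muguanuo over ZS97), HSP24.1 (2.34, 9311 over Muguanuo), HSF05 (2.12, ZS97 over Geng87-304), HSF25 (1.87, ZS97 over Muguanuo) and HSP17.4 (1.83, IRAT109 over 9311). IRAT109 had the highest mean for 9 of the 23 proteins and 9311 the lowest for 9. How often each accession was highest or lowest over all genes was not computed, so these counts only describe the means. For some of these proteins the accession term did not pass, among them HSP16.9A, HSP23.2 and HSP26.7 for IRAT109 and HSP17.9B for 9311. HSP21.9, HSP23.2 and HSP26.7, all highest in IRAT109, were above background on no array.

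Of the 4 genes on chromosome 3, HSP17.4, HSP18.1 and HSP17.7 had low readings in 9311, and HSP17.9A did not. HSP18.1 read 16.1 to 20.4 in 9311 and 26.4 to 26.7 on the MH63 arrays outside the pair, against 49.2 to 142 in the other accessions. HSP17.4 read 24.8 to 37.8 in 9311, against 99.1 to 258 in accessions other than MH63 outside the pair. HSP17.7 read 92.8 to 113 in 9311, against 148.3 to 399 in accessions other than MH63 outside the pair. HSP17.9A read 276 to 299.7 in 9311, among the other accessions, and was lowest in MH63, at 153.3 to 170.3 outside the pair. On chromosome 1, HSP16.9B read 42.3 to 128 in IRAT109, Youmangzaogeng and Muguanuo and 16.0 or less in the other accessions. It exceeded background on 2 arrays, so most of the higher readings also lay below it.

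**Figure D4:**
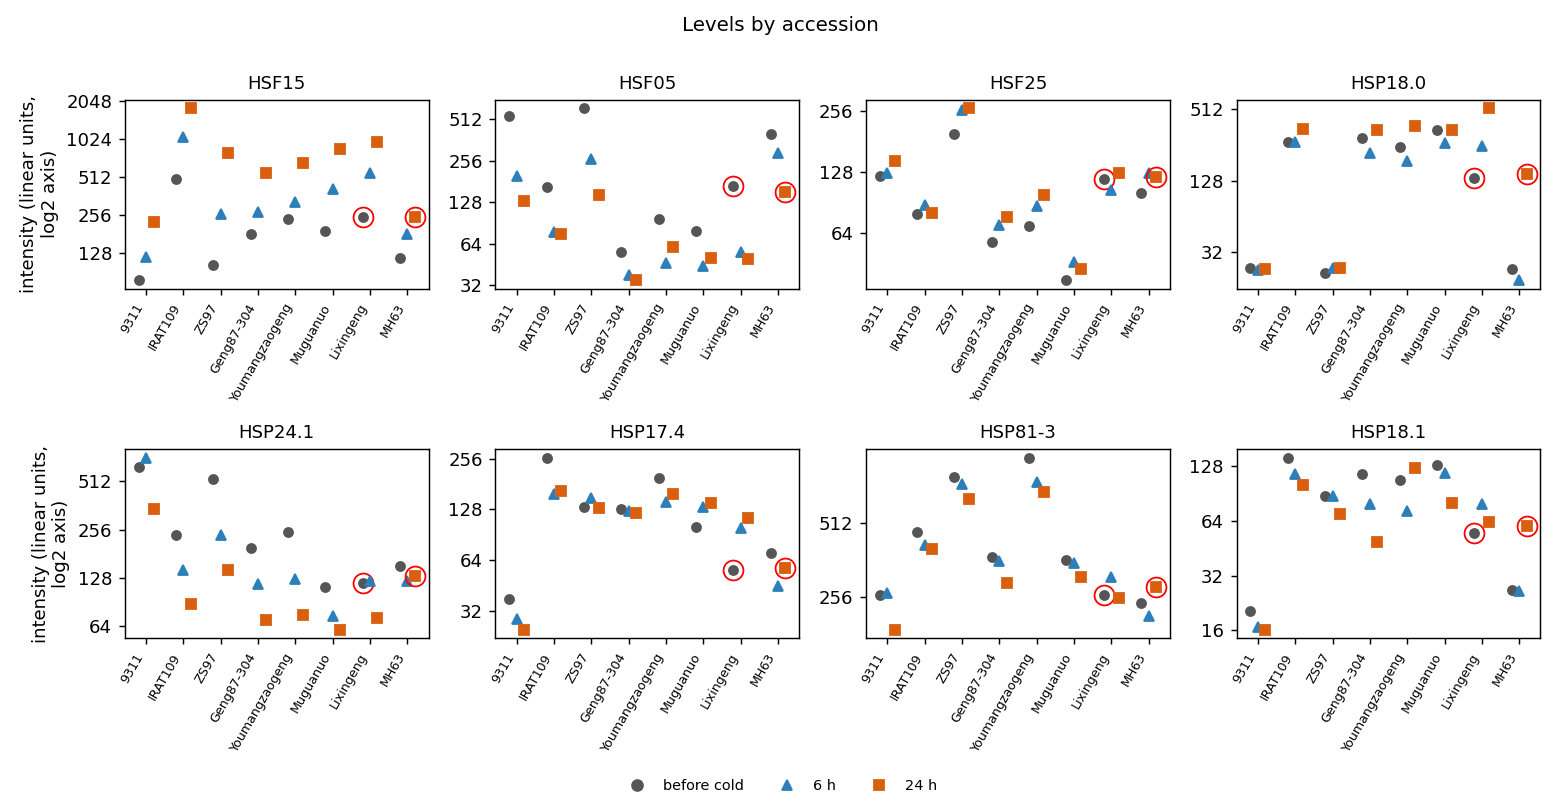
Intensity (linear units on a log2 axis) by accession for the 3 factor genes and the 5 heat shock protein genes with the widest ranges of accession means, with before cold (grey circles), 6 h (blue triangles) and 24 h (orange squares) for each of the 8 accessions. Red circles mark the arrays Lixingeng before cold and MH63 at 24 h. HSP18.0 lies at 18.6 to 23.7 in 9311, ZS97 and MH63 and at 189 or more elsewhere outside the marked arrays, HSP18.1 is lowest in 9311, and HSF15 is highest in IRAT109.

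With 1 array per accession and time, whether accessions respond differently could not be tested. The changes of HSF03 at 24 h were 4.66 in Geng87-304, 4.40 in Youmangzaogeng, 4.26 in Muguanuo, 3.92 in IRAT109, 3.42 in ZS97 and 2.84 in 9311, and 2.32 and 1.35 in Lixingeng and MH63, where the pair enters. For HSF07 the first 5 of these accessions gave 4.19, 3.38, 3.08, 2.94 and 2.21 in that order, and 9311 lay next to ZS97 at the low end. Changes of 1 or more are counted next as a description only, since the share of all genes with such changes was not computed. In each accession except MH63, 4 of the 20 factors changed by 1 or more upward at 24 h, and in MH63 2 did. For the 23 proteins this count was 0 in the 6 accessions outside the pair and 1 in Lixingeng and MH63, the gene there being HSP18.0. Downward changes of 1 or more at 24 h numbered 4 in IRAT109, ZS97 and Youmangzaogeng, 3 in Geng87-304 and Muguanuo, 1 in 9311 and 0 in Lixingeng and MH63 among the proteins, and 0 to 2 per accession among the factors.

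Genes of the wider pathway were taken by name. Of 32 chaperone and co-chaperone genes outside the HSP names, 26 were measured, of which 2 rose and 2 fell at 6 h and 6 rose and 12 fell at 24 h. These were 15.4% of them at 6 h and 69.2% at 24 h, against the 17.9% and 52.1% of all genes. Without the pair, 2 rose and 8 fell at 6 h and 5 rose and 12 fell at 24 h, with no share of genes computed for that fit. Their median 24 h change was -0.11, beside -0.04 over all genes. BIP1, the HSP70 chaperone of the endoplasmic reticulum, fell by 0.55 at 6 h and 0.74 at 24 h (0.66 and 1.01 without the pair). PDIL2-3 and PDIL5-4, relatives of the protein disulfide isomerases that form disulfide bonds there, fell by 1.07 and 0.65 at 24 h, and CRT1, a calreticulin, fell by 0.43. Of the rises, CLPD1 and CLPD2, HSP100-type proteins of the chloroplast, rose at 24 h by 0.61 and 0.46, and DJA6, a DnaJ protein, by 0.36. Of 12 DREB2 and ascorbate peroxidase genes, 10 were measured, of which 1 rose at 6 h and 5 rose and 1 fell at 24 h. The shares called were 10% at 6 h and 60% at 24 h, against the 17.9% and 52.1% of all genes. DREB2A and DREB2D exceeded background on no array and passed at neither time, with 24 h changes of -0.08 and 0.06. DREB2B, the factor upstream of heat and drought genes in rice, rose by 0.71 ± 0.49 at 6 h (adjusted p = 0.0161) and 2.03 ± 0.73 at 24 h (adjusted p = 1.40e-07; 8 of 8), while the ascorbate peroxidase genes that rose did so by 0.13 to 0.24.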

How the data were processed

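The deposited table held 1 intensity per probe set and array on a linear scale for 24 biotin-labelled Affymetrix arrays of total RNA, as the values show. How the authors summarised and scaled them is not given in the sources used here, nor is the software. Of 57381 probe sets, 123 were controls, and the other 57258 were tested. The annotation gave 22436 probe sets with 1 gene and 95 with several. A gene was represented by its single-gene probe set of highest mean, with those ending in _x_at or _s_at set aside where it had another.

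An offset of 32 was added before log2, and no further normalization was applied. Time and accession were fixed terms of 1 limma 3.58.1 model (R 4.3.3; lmFit, eBayes with trend), tested on simulated data first. Contrasts and the F test of the accession term were adjusted by Benjamini-Hochberg over all 57258. The SD beside a change is that of the 8 accessions' changes. Accession blocks the fit because each gave all 3 times. Deviations from time means correlated at 0.248 to 0.886 over the 24 pairs of arrays of an accession, 0.652 or more without the like pair.

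The members, the lists and the rule for background were chosen with earlier results of these data known. All members may be named, and array values are given for HSF03, HSF07, HSF09 and HSF25 and for the 4 largest changes that passed in each class at each cold time. Alternatives were quantile normalization, equal medians, offsets of 8 and 64, a filter on low values, array weights, no pair, no block, the second probe set and leaving out each accession. Promoter and protein sequences were not analysed here. The number of arrays limits the precision. Python 3.11.15 with pandas 2.3.3, numpy 2.4.6, scipy 1.17.1 and matplotlib 3.10.9 made tables and plots.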

Additional observations from a re-analysis of the deposited data

Results flagged for a closer look

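For the 10 genes with array values given, the 8 readings of each time were searched for a lowest or highest array far from the rest on the log2 scale, which chance alone finds in about 1 in 20 groups. Of 30 groups, 3 held such an array. HSF03 read 226 on the Lixingeng array before cold, against 36.0 to 54.3 on the other 7. HSF07 read 534 on the same array, against 43.7 to 111. That array is 1 of the like pair, and without the pair the 24 h changes of HSF03 and HSF07 were 3.88 and 3.08. HSP24.1 read 342 in 9311 at 24 h, against 61.1 to 144 in the other accessions, and 9311 was also its highest accession before cold and at 6 h.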

How the results depend on the processing

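Of 371 single-gene values recomputed for 23 called changes of the 10 genes with array values, 345 kept direction and call, 26 kept direction and no longer passed, and 0 turned direction. Counts of calls for the proteins at 6 h (1 with all arrays) were 0 under quantile normalization and under equal medians in limma, where 4 fell and 0 rose at an unadjusted p under 0.05 under either, 5 with array weights and 4 without the pair of like arrays, each of these a fall. Without the replicate block, which leaves the differences between accessions in the error, the factors called were 0 at 6 h (2 higher and 5 lower at an unadjusted p under 0.05), 9 at 24 h and 3 for 24 h against 6 h, in place of 10, 15 and 6. The proteins called were then 0 at 6 h (0 higher and 2 lower at an unadjusted p under 0.05), 5 at 24 h and 3 for 24 h against 6 h, in place of 1, 10 and 8. Leaving out each accession in turn gave 7 to 11 factors at 6 h, 13 to 15 at 24 h, 5 to 8 for 24 h against 6 h and 12 to 17 for the accession term. For the proteins it gave 0 to 1, 8 to 9, 6 to 10 and 13 to 17. The protein call at 6 h, HSP24.1, was lost without IRAT109, ZS97, Geng87-304, Youmangzaogeng or Muguanuo, with 3 to 5 proteins lower and 0 higher at an unadjusted p under 0.05 in those fits. The other totals stayed within 1.5 times of those with all arrays, but counts by direction moved further. Factors higher at 6 h numbered 2 in place of 4 without ZS97, Geng87-304, Youmangzaogeng or Muguanuo. Factors lower at 24 h against 6 h numbered 0 in place of 1 under quantile normalization and without each accession other than MH63, 3 without MH63 and with array weights, and 4 without the pair. Proteins higher at 24 h numbered 1 in place of 3 without MH63 and with the filter on low values. For 24 h against 6 h, proteins higher numbered 1 in place of 3 with that filter, and proteins lower 8 in place of 5 without MH63, with array weights and without the pair. The cause of these differences was not tested. Members with readings near background, and genes with 1 probe set, limit what the arrays resolve.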
